A study of Mus musculus with 2 samples.

Results

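Solute carriers, the membrane proteins that move sugars, amino acids, ions, metals, vitamins and nucleotide sugars across the plasma membrane and organelle membranes, were described across the cell clusters of mouse colon 2 weeks after irradiation. The members were 77 genes, chosen by measured level: of the 17044 gene symbols in the deposited table, 268 begin with Slc and a number, and 41 mitochondrial carriers (Slc25) and 4 sodium and chloride carriers (Slc12a2, Slc26a2, Slc26a3, Slc9a3) were set aside. The remaining 223 were kept where at least 1 of the 12 cluster averages reached 0.5 UMIs (unique molecular identifiers, each standing for 1 captured RNA molecule) per 10000 UMIs of a cell. All 146 genes that stayed below this level had a value above 0 in some cluster. The members just inside were Slc39a1 at 0.512 in cluster 4 and Slc30a9 at 0.518 in cluster 6, and Slc35g2 lay just outside at 0.471 in cluster 11. Because level chose the members, their levels are given as a description, without any test. The 77 genes belong to 35 numbered carrier families, and 2 symbols among them are not carriers themselves. Slc9a3r1 encodes the scaffold NHERF1, which anchors sodium/proton exchangers, and Slc3a2 encodes the heavy chain that brings several amino acid exchangers to the cell surface.

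The samples were 1 group of 2 libraries prepared from the colon epithelium of C57BL/6 wild-type mice 2 weeks after irradiation. The series title places them in work on radiation proctitis and transplanted colonoids, which are organoids grown from colon crypts, but no label tells graft-derived cells from host cells. No column names a library and no unirradiated sample was analysed here, so differences between clusters were the only comparison, and no value has a replicate. The clusters are those of the authors and are given by number.

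Colonocytes, the absorptive cells of the colon surface, take up short-chain fatty acids made by bacteria, exchange sodium and chloride, and carry vitamins, metals and phosphate, and they change their set of carriers as they move from the crypt to the surface. Goblet cells, which make mucus, need carriers that bring activated sugars into the Golgi apparatus, where mucins are glycosylated. Neutrophils depend largely on glycolysis, which takes up glucose and releases lactate.

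The numbers of cells were read from the arithmetic of the low values and came to 3082 cells in all, from 482 in cluster 0 to 31 in cluster 10 and 19 in cluster 11. The median UMI total per cell ranged from 1406.5 in cluster 5 to 19522 in cluster 7. Marker genes set the frame for the carriers. All 7 goblet markers were highest in cluster 0, all 5 neutrophil markers in cluster 5, all 5 proliferation markers in cluster 7 and all 5 enteroendocrine markers in cluster 11, and these clusters are called goblet-like, neutrophil-like, proliferating-like and enteroendocrine-like. Of 7 absorptive markers 4 were highest in cluster 8, called absorptive-like, 2 in cluster 9 and 1 in cluster 4. Cluster 10 had the highest level of all 4 macrophage and dendritic markers, all 4 T and NK cell markers and all 3 mast cell markers, and it was left unnamed. Xist, which coats the inactive X chromosome, was listed at 0 in cluster 8, where 3 UMIs would allow 0.0326 per 10000, at 0.0197 in cluster 3 and at 0.0223 in cluster 9, compared with 2.99 in cluster 4, 2.68 in cluster 6 and 2.10 in cluster 7. Levels of the Y-linked Eif2s3y lay between 0.284 and 0.662 in the 12 clusters. In the remaining clusters Xist lay between 0.236 in cluster 0 (0.194 to 0.283) and 1.34 in cluster 1. The part of this uneven Xist in the differences between clusters was not tested. It stands beside every contrast of clusters with unlike Xist, those of clusters 0, 3, 8 and 9 included.

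The promoters of 5 carriers are printed: the 3 that led in the absorptive-like cluster 8 (Slc37a2, Slc20a1, Slc15a1) and, of the 6 that led in the neutrophil-like cluster 5, the 2 with the most UMIs there (Slc7a11, Slc16a3). Each run is the 250 bases before the RefSeq start site in build GRCm38.p6, 5′ to 3′ on the gene's strand. Capitals mark matches on either strand to 5 searched motifs: AP-1 (TGANTCA), the GC box (GGGCGG), the hypoxia response core (ACGTG), the amino acid response motif (TGATGNAA) and the antioxidant response motif (TGACNNNGC). Slc37a2 lies at chr9:37227585-37255738 on the minus strand and its run at chr9:37255739-37255988. The run of Slc20a1 lies at chr2:129198523-129198772 on the plus strand, that of Slc15a1 at chr14:121505255-121505504 on the minus strand, that of Slc7a11 at chr3:50443614-50443863 on the minus strand and that of Slc16a3 at chr11:120948817-120949066 on the plus strand. The annotated Slc16a3 gene spans chr11:120948480-120960868, so its run lies inside the annotated gene. The runs of Slc20a1 and Slc7a11 overlap the annotated genes only at the start, which lies at 129198764 and 50443614.
Slc37a2: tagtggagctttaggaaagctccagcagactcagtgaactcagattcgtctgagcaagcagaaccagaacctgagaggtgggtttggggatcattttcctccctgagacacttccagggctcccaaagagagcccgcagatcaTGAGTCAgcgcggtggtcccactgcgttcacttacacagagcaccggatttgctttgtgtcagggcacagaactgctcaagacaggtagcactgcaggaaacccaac
Slc20a1: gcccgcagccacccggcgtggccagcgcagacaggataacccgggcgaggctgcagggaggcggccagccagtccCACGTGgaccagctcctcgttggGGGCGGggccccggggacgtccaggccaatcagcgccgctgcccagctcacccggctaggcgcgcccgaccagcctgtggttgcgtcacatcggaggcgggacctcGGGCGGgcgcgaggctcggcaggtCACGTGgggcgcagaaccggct
Slc15a1: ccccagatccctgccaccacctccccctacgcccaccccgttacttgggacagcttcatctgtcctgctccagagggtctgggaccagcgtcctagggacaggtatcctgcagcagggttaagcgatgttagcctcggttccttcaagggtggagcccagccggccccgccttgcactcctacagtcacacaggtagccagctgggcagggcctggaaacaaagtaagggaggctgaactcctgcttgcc
Slc7a11: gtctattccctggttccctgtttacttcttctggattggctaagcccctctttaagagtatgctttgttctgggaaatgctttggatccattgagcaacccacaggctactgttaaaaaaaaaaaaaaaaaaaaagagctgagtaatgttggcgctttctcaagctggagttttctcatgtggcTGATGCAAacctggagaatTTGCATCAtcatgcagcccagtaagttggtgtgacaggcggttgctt
Slc16a3: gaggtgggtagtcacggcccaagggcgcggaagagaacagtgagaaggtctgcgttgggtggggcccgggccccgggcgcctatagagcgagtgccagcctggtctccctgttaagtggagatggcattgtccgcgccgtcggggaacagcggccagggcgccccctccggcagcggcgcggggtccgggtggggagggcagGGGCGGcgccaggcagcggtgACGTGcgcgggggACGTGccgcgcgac

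Slc37a2 held 1 match, an AP-1 motif from 107 to 101 bases before the start. Slc20a1 held 2 GC boxes and, at 2 places, the palindrome CACGTG, which matches the hypoxia core on both strands. In Slc7a11 the amino acid response motif, a sequence of the kind that the transcription factor ATF4 recognises, occurred in both orientations, 66 to 59 and 47 to 40 bases before the start. Slc16a3 held 1 GC box and 2 hypoxia cores, and Slc15a1 held none of the 5 motifs. RefSeq promoters were at hand for 61 of the 77 members. The GC box occurred in 57.4% of these and in 33.05% of all 27025 promoters of the same length, the hypoxia core in 22.95% and 16.6%, the antioxidant motif in 18.03% and 10.1%, AP-1 in 6.56% and 6.83%, and the amino acid response motif in 4.92% and 3.53%. The members were chosen by level, whereas the 27025 promoters had no floor of level. Shares among genes at the same floor were not computed, so these differences are not read as traits of carriers. Such matches are a description of letters and were not tied to binding in these cells.

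Solute carriers were most often highest in the absorptive-like cluster 8 and in the goblet-like cluster 0. Cluster 8 held the highest level of 23 of the 77 members (29.9%), against 10.9% of the 5809 genes that reached 0.5 per 10000 in some cluster. Cluster 0 held 16 (20.8%), against 5.77% of all such genes. It was also low for many carriers: 29 members (37.7%) were at least 2-fold below the mean of the other clusters there, against 15.6% of all genes. The member median in cluster 0 was -0.50 log2 units over that mean, where that of all genes was -0.26. Without clusters 10 and 11, each under 50 cells, the shares were 29.9% in cluster 8 and 31.2% in cluster 0, so the order of the pair turned. All-gene shares without these 2 clusters were not computed, so this pair of shares has no background beside it. The proliferating-like cluster 7 was the highest for 0 members, against 13.1% of all genes, and the enteroendocrine-like cluster 11 for 7 (9.09%), against 20.9%. In the neutrophil-like cluster 5 the count was 9 (11.7%), against 10.3%, in cluster 4 it was 7 (9.09%), against 8.81%, and in cluster 3 it was 4 (5.19%), against 4.18%, so these 3 clusters held about the background share. The summed level of the members was 84.7 per 10000 in cluster 8, or 68.9 without Slc37a2 and Slc20a1, and lay between 26.5 in cluster 10 and 54.6 in cluster 5 elsewhere.

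**Figure D1:**
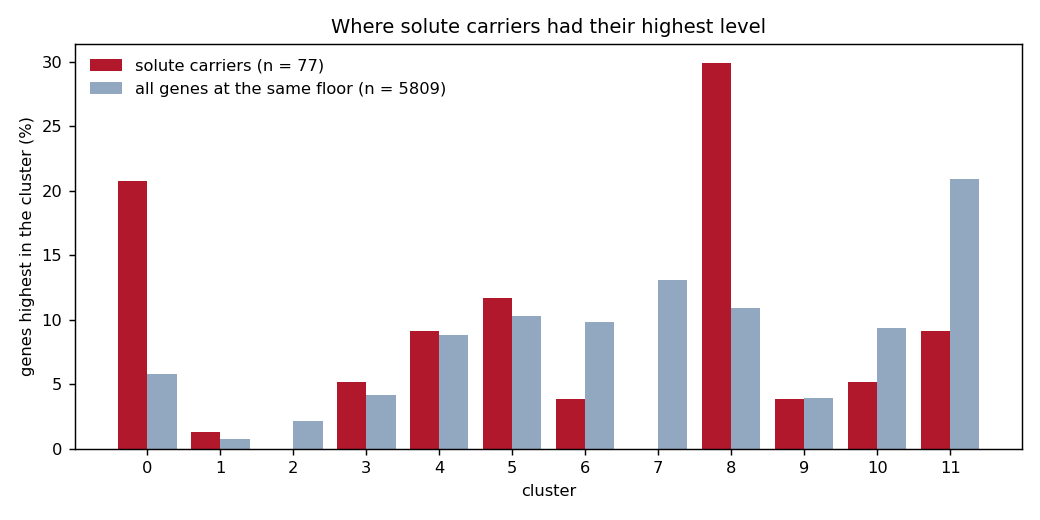
Percent of genes that had their highest average in each cluster (horizontal axis, cluster number), for the 77 solute carriers (red) and for all 5809 genes at the same floor (blue). Carriers exceed all genes in clusters 8 (29.9% against 10.9%) and 0 (20.8% against 5.77%) and are at 0 in clusters 2 and 7.

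Few carriers led a single cluster. A gene was called leading where its level was 1 or more per 10000 and 2-fold or more over its next highest cluster, with 0.1, the pseudocount, added to both levels. By this rule 14 of 77 members led (18.2%), against 13.2% of all genes: 6 in cluster 5 (7.79%, against 4.25% of all genes), 3 in cluster 8 (3.90%, against 0.671%), 3 in cluster 11 (3.90%, against 3.37%) and 2 in cluster 0 (2.60%, against 1.19%). A cluster's leading genes are partly what defined it, so these shares describe the clusters. Measured against the mean of the other clusters, and again at a level of 1 or more, 17 members were at least 2-fold higher in cluster 8 (22.1%, against 5.94% of all genes). In cluster 4 the count was 8 (10.4%, against 5.39%), in cluster 5 it was 7 (9.09%, against 7.73%) and in cluster 0 it was 6 (7.79%, against 3.27%). Clusters 3 and 9 had 6 each (7.79%), against 1.6% and 1.96% of all genes, so cluster 8 was not alone in such an excess. Clusters 10 and 11 had 3 each (3.90%), against 5.65% and 7.76%, and clusters 1, 2, 6 and 7 had 0. Of the members, 45 (58.4%) had a fold under 1.5 over the next cluster, as did 64.4% of all genes, and 2 reached 0.5 per 10000 in every cluster. For 30 members this floor was reached in 1 cluster only, so they are members through that cluster alone. The 95% intervals given below cover counting error only, from approximate UMI numbers, and not the spread between cells or mice. By these intervals the highest cluster was apart from the next for 39 members. The matching share over all genes was not computed, so this count is not a trait of carriers.

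**Figure D2:**
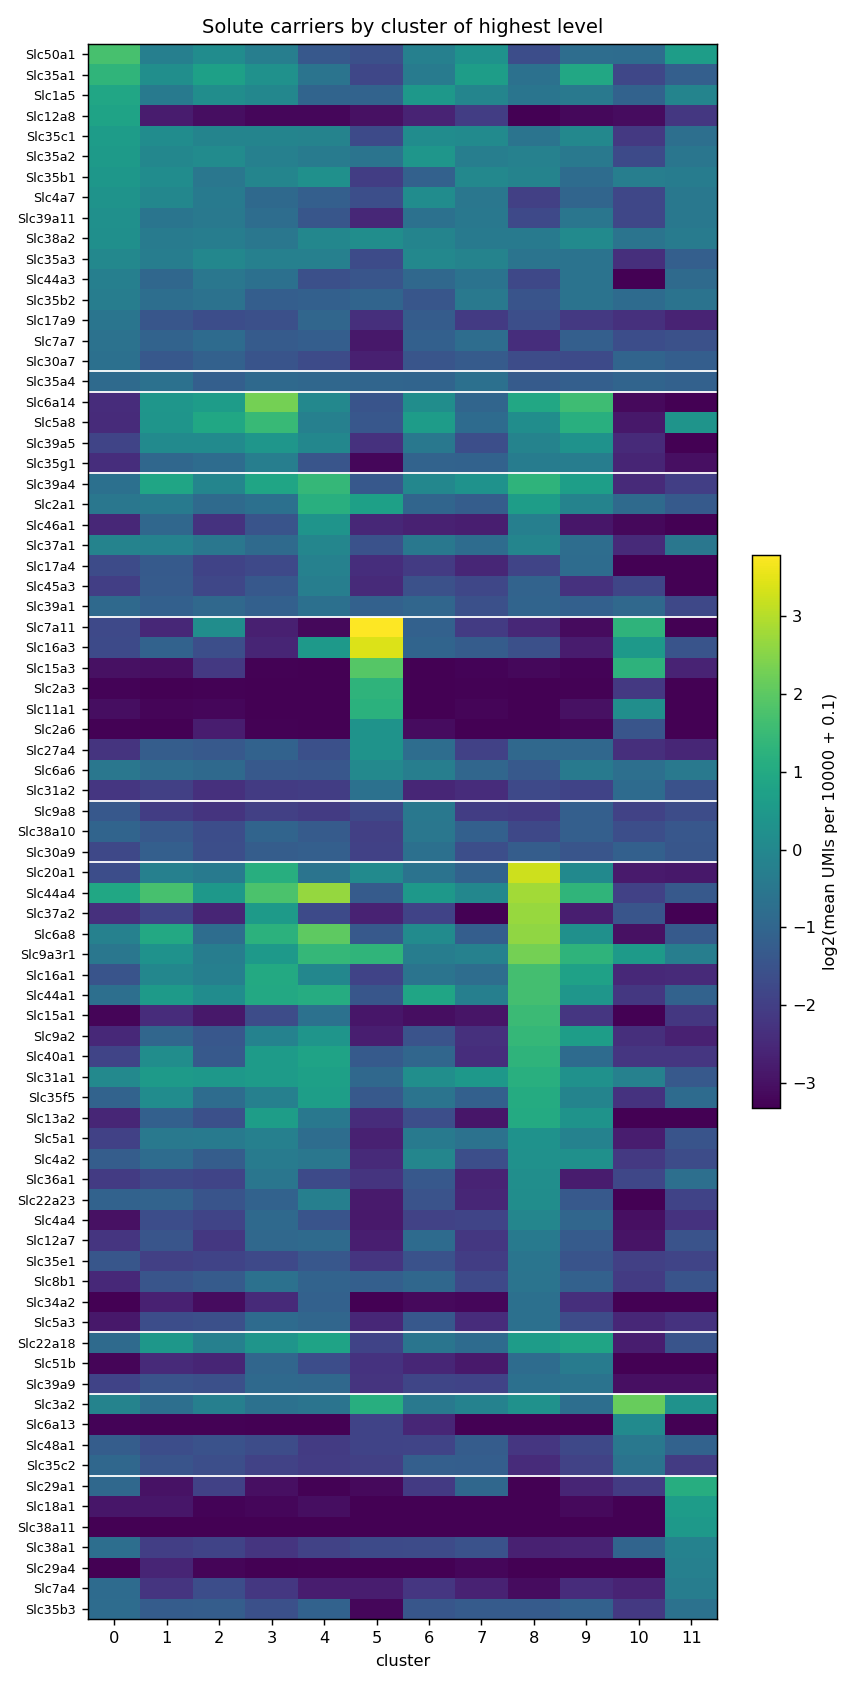
Level of the 77 solute carriers (rows, grouped by white lines according to the cluster of the highest level) in the 12 clusters (columns), as log2 of mean UMIs per 10000 plus 0.1. The block of 23 carriers of cluster 8 shows intermediate levels in clusters 3, 4 and 9, and Slc38a11 is above 0 in cluster 11 alone.

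Phosphate carriers had their highest level in cluster 8. Slc20a1, which encodes the sodium-phosphate cotransporter PiT-1, averaged 9.40 per 10000 in cluster 8 (95% interval 8.79 to 10.1), followed by 2.11 in cluster 3 (1.95 to 2.28). Clusters 5 and 9, at 0.966 and 0.945, had overlapping intervals, and the rest lay at 0.375 to 0.750 in clusters 1, 2, 4, 6 and 7, at 0.220 in cluster 0, at 0.0436 in cluster 10 and at 0.0369 in cluster 11. Its fold over the highest other cluster was 4.30. Cluster 8 thus stood alone, cluster 3 was an intermediate step, and the 2 small clusters rested on about 1 UMI each. Slc34a2, the sodium-phosphate cotransporter NaPi-IIb, averaged 0.523 in cluster 8 (0.386 to 0.693) and 0.361 in cluster 4 (0.277 to 0.462), with overlapping intervals and a median of 0.0153 over the 12 clusters. Xpr1, a phosphate exporter outside the carrier families, was also highest in cluster 8, at 0.965, with 0.637 in cluster 3.

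Slc37a2, a sugar phosphate and phosphate exchanger of the endoplasmic reticulum, averaged 6.43 per 10000 in cluster 8 (5.92 to 6.97) and 1.38 in cluster 3 (1.25 to 1.52), a fold of 4.41. No other cluster exceeded 0.267, the value of cluster 10 (0.0951 to 0.590). In the absorptive cluster 9 it averaged 0.0506 (0.0186 to 0.110), in cluster 4 0.202 and in cluster 7 0.00182, and it was listed at 0 in cluster 11, where 3 UMIs would allow 0.174. High Slc37a2 was therefore a feature of clusters 8 and 3 and not of cluster 9, although 2 absorptive markers were highest in cluster 9. Its relative Slc37a1 had overlapping intervals at the top, with 0.865 in cluster 4 (0.732 to 1.02), 0.839 in cluster 8 (0.662 to 1.05) and 0.804 in cluster 0. It was lower in cluster 3, at 0.446 (0.374 to 0.527), in cluster 5, at 0.244 (0.108 to 0.472), and in cluster 10, at 0.0789 (0.00723 to 0.313).

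**Figure D3:**
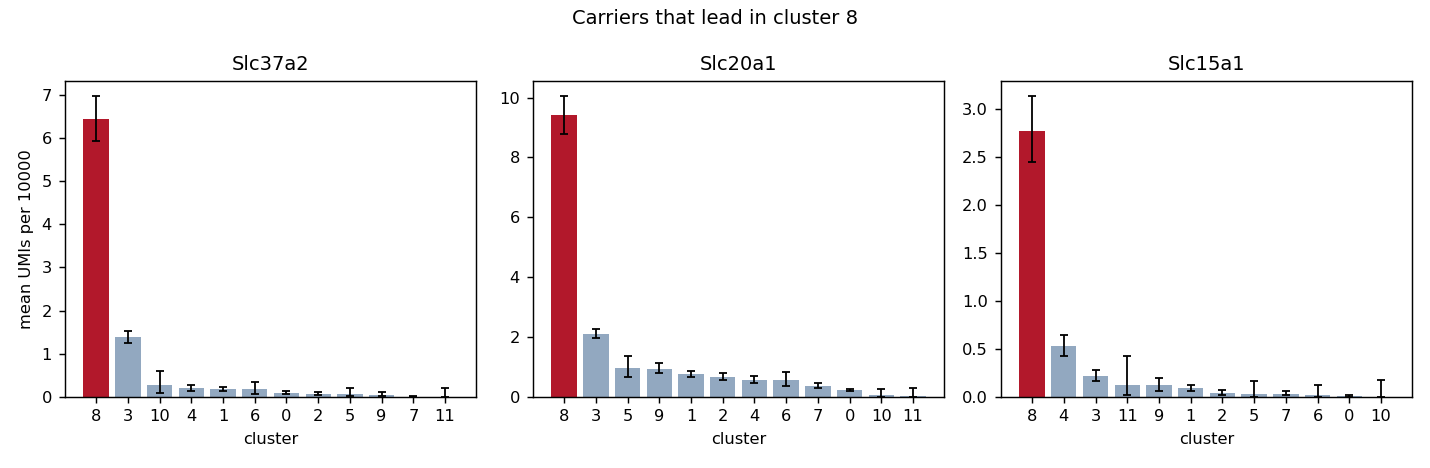
Level of Slc37a2, Slc20a1 and Slc15a1 (vertical axes, mean UMIs per 10000, each with its own scale) in the 12 clusters, ordered from the highest (red) to the lowest, with 95% intervals for counting error. Cluster 8 is first in each panel, at 6.43, 9.40 and 2.78, and cluster 3 is second for Slc37a2 (1.38) and Slc20a1 (2.11) while cluster 4 is second for Slc15a1 (0.527).

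The genes whose pattern over the 12 clusters was most like Slc37a2, by Pearson correlation of log2 levels among 3275 other genes at 1 or more per 10000, were Epas1 (0.90), Fxyd4 (0.87), Nt5c3 (0.84), Unc119 (0.82) and Trpm6 (0.82). For Slc20a1 they were Slc26a3 (0.92), Vdr (0.90), Tnni1 (0.88), Trpm6 (0.87) and Slc26a2 (0.87). Epas1 encodes a hypoxia-inducible transcription factor, Vdr the vitamin D receptor, Trpm6 a magnesium channel, and Slc26a3 and Slc26a2 a chloride and a sulfate exchanger. All 9 of these genes were highest in cluster 8, with Slc26a3 at 20.7 and Fxyd4 at 21.9 there, against 2.42 and 6.11 in cluster 3. Slc20a1 stood at place 29 in the order for Slc37a2 (0.76). The points are clusters that share libraries and were drawn from these genes, and by Spearman correlation 1 of the 5 genes stayed among the first 5 in each case.

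Peptide carriers split between absorptive cells and leukocytes. Slc15a1, the proton-coupled uptake carrier for small peptides (PepT1), averaged 2.78 per 10000 in cluster 8 (2.45 to 3.14) and 0.527 in cluster 4 (0.424 to 0.647), a fold of 4.59, or 2.47 with a pseudocount of 1. It averaged 0.216 in cluster 3, 0.118 in cluster 9 and at most 0.123 elsewhere. Slc15a3, a lysosomal peptide and histidine carrier, averaged 3.71 in cluster 5 (3.09 to 4.40) and 2.31 in cluster 10 (1.71 to 3.05), and the highest epithelial value was 0.126 in cluster 2. The pair thus shared no cluster with a high level.

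Amino acid carriers, with 14 members of 42 measured, were dispersed over 7 clusters. Slc6a14, a sodium- and chloride-driven carrier of neutral and cationic amino acids, averaged 4.84 in cluster 3 (4.60 to 5.09), 2.90 in cluster 9 (2.60 to 3.22) and 1.81 in cluster 8, compared with 0.0873 in cluster 0 and 0 in cluster 11. Slc6a8, the creatine carrier, averaged 6.03 in cluster 8 (5.54 to 6.55), 3.95 in cluster 4 (3.66 to 4.26) and 2.26 in cluster 3. Slc36a1, a proton-coupled amino acid carrier found on lysosomes, averaged 1.04 in cluster 8 and 0.596 in cluster 3. Its value in cluster 9 was 0.0464, and that in cluster 11 was 0.511 (0.232 to 0.976), which overlapped cluster 3. Slc1a5, a glutamine carrier, averaged 1.73 in cluster 0 (1.62 to 1.86) and 1.29 in cluster 6 (0.983 to 1.67), with overlapping intervals. Slc38a2, another carrier of small neutral amino acids, was the most even of the class, between 0.571 and 1.06 in all clusters.

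The exchanger of cystine for glutamate, known as xCT, was a mark of cluster 5 in its light chain. Slc7a11, which encodes this chain, averaged 13.8 per 10000 there (12.6 to 15.06), with 2.39 in cluster 10 (1.78 to 3.13), 1.02 in cluster 2 (0.890 to 1.16) and 0.365 in cluster 6. It averaged 0.198 or less in the other clusters and was listed at 0 in cluster 11. Slc3a2, its heavy chain, was present in all 12 clusters, at 4.28 in cluster 10 (3.45 to 5.24) and 2.10 in cluster 5 (1.65 to 2.64), and between 0.493 and 1.14 elsewhere. Light and heavy chain therefore peaked in different clusters. Without clusters 5 and 10, which had the highest Ptprc, the pan-leukocyte gene, cluster 2 was the highest for Slc7a11, at 2.40-fold over cluster 6. Cluster 2 also held S100a8 and S100a9, at 3.800% and 3.51% of their level in cluster 5, while Slc7a11 was there at 7.39%, Slc16a3 at 2.17%, Slc2a6 at 4.12% and Slc2a3 at 0.0933% of theirs. The part of neutrophil RNA in the Slc7a11 level of cluster 2 was not tested.

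Monocarboxylate carriers, which move lactate and the bacterial fatty acid butyrate, differed by cluster. Slc16a1 (MCT1), the colonocyte carrier for butyrate, averaged 3.104 in cluster 8 (2.75 to 3.49), 1.89 in cluster 3 (1.74 to 2.05) and 1.59 in cluster 9, compared with 0.260 in cluster 0. Slc16a3 (MCT4), the carrier by which glycolytic cells release lactate, averaged 10.5 in cluster 5 (9.44 to 11.6), 1.34 in cluster 10 (0.896 to 1.93) and 1.33 in cluster 4 (1.17 to 1.52). Among the clusters other than 5 and 10, cluster 4 led in Slc16a3, at 2.91-fold over cluster 6, and clusters 9 and 3 had the lowest values, 0.0449 and 0.0669. Slc5a8 (SMCT1), a sodium-coupled monocarboxylate carrier placed with the sugar carriers by its family number, averaged 2.67 in cluster 3 (2.49 to 2.85), 2.16 in cluster 9 (1.90 to 2.44) and 1.78 in cluster 2, compared with 1.03 in cluster 8 and 0.0837 in cluster 0. The 2 uptake carriers thus had different orders over clusters 3, 8 and 9, with Slc16a1 first in cluster 8 and Slc5a8 first in cluster 3.

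**Figure D4:**
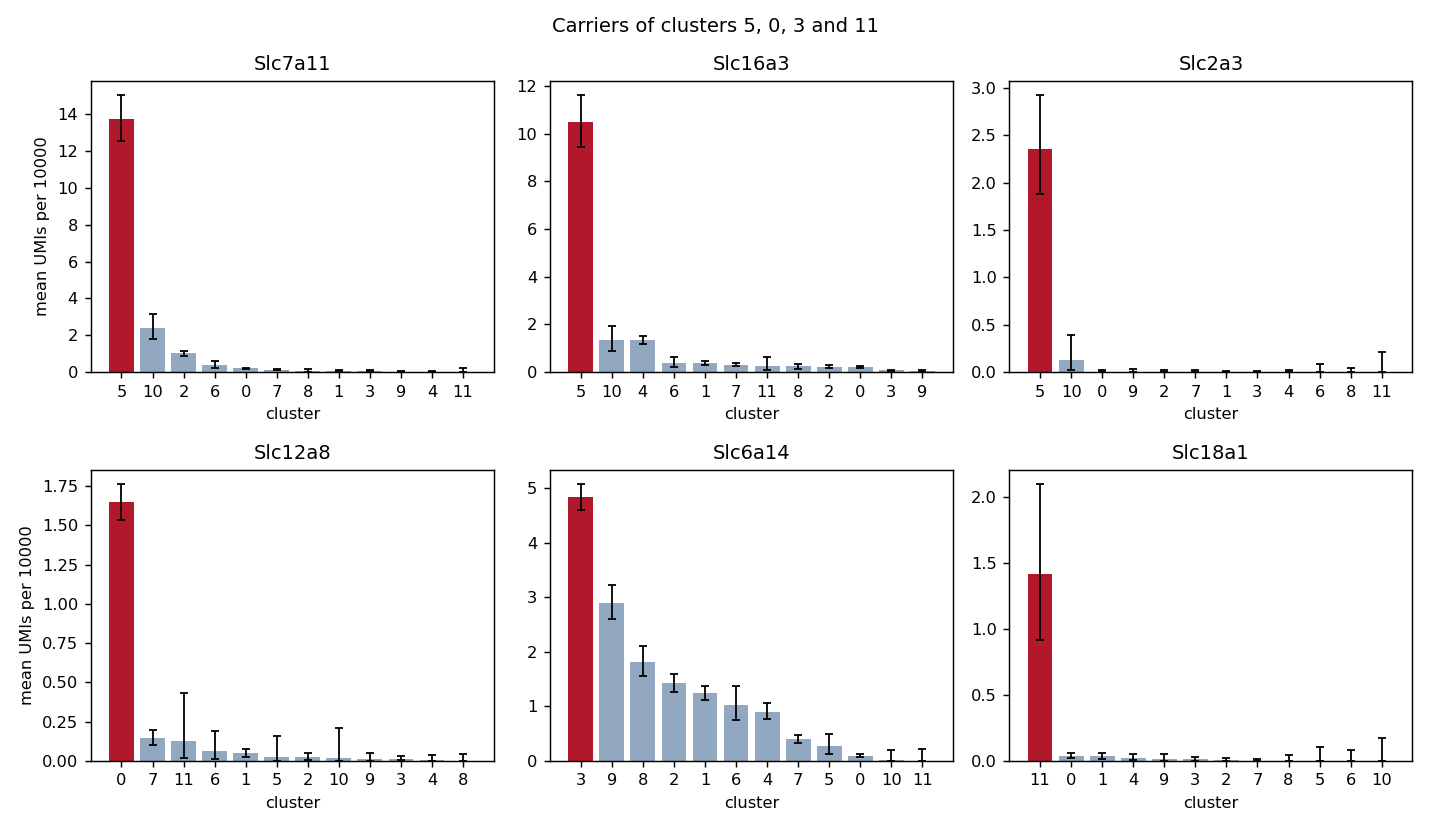
Level of 6 carriers (vertical axes, mean UMIs per 10000, each with its own scale) in the 12 clusters, ordered from the highest (red) to the lowest, with 95% intervals for counting error. Slc7a11, Slc16a3 and Slc2a3 are highest in cluster 5 (13.8, 10.5 and 2.36), Slc12a8 in cluster 0 (1.65), Slc6a14 in cluster 3 (4.84) with a graded decline, and Slc18a1 in cluster 11 (1.42).

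Glucose carriers marked different clusters. Slc2a1 (GLUT1) averaged 2.14 in cluster 4 (1.92 to 2.37), 1.56 in cluster 5 (1.17 to 2.03) and 1.46 in cluster 8 (1.22 to 1.73), compared with 0.306 to 0.802 in the others. Slc2a3 (GLUT3), a carrier with high affinity for glucose, averaged 2.36 in cluster 5 (1.87 to 2.92), with 0.127 in cluster 10 and at most 0.00529 in any other cluster. Slc2a6 (GLUT6) averaged 1.17 in cluster 5 (0.835 to 1.58) and 0.269 in cluster 10. Slc5a1, the sodium-glucose cotransporter SGLT1, averaged 1.14 in cluster 8 (0.928 to 1.37) and 0.786 in cluster 9 (0.635 to 0.962), with overlapping intervals. Slc50a1, a sugar carrier of the SWEET family, averaged 3.20 in cluster 0 (3.05 to 3.37) and 1.45 in cluster 11 (0.938 to 2.14), compared with 0.218 in cluster 8 and 0.235 in cluster 5. Clusters 3 and 9 lay between, at 0.719 and 0.486.

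Among carriers of bicarbonate, chloride and protons 5 of 8 members were highest in cluster 8, against 10.9% of all genes, although the scaffold Slc9a3r1 is 1 of these 5. Slc9a2, the sodium/proton exchanger NHE2, averaged 2.60 in cluster 8 (2.28 to 2.95), 1.46 in cluster 9 and 1.22 in cluster 4, compared with 0.0780 in cluster 0. Slc9a3r1 averaged 4.89 in cluster 8 (4.45 to 5.37), 2.56 in cluster 4 and 2.40 in cluster 5. Slc4a2, a chloride/bicarbonate exchanger, averaged 1.11 in cluster 8 and 1.09 in cluster 9, with overlapping intervals. Slc12a8, a relative of the cation-chloride cotransporters, peaked in the goblet-like cluster instead, at 1.65 in cluster 0 (1.53 to 1.77), with 0.143 in cluster 7 (0.102 to 0.194), 0.124 in cluster 11 from 6 UMIs of 1 cell, and 0 in cluster 8. Its fold over the next cluster was 7.19, against 2.32 with a pseudocount of 1 and 10.8 with 0.01. Muc2, the goblet mucin, averaged 79.2 in cluster 0 and at most 5.55 in any other cluster. Slc4a7, a sodium-bicarbonate cotransporter, averaged 1.15 in cluster 0 and 0.991 in cluster 6.

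Metal carriers, with 12 members of 30 measured, had no common cluster. Slc39a4 (ZIP4), the zinc uptake carrier of the gut surface, averaged 2.59 in cluster 4 (2.36 to 2.84) and 2.36 in cluster 8 (2.05 to 2.69), with overlapping intervals, then 1.72 in cluster 3 and 1.70 in cluster 1, compared with 0.520 in cluster 0. Slc39a5 (ZIP5), another zinc carrier, ranged only from 0.810 to 1.24 over clusters 1, 2, 3, 4, 8 and 9 and averaged 0.177 in cluster 0. Slc40a1 (ferroportin), the iron exporter, averaged 2.38 in cluster 8 (2.07 to 2.71), 1.65 in cluster 4 (1.47 to 1.86) and 1.41 in cluster 3, compared with 0.466 in cluster 9 (0.352 to 0.606). Heph, the ferroxidase that works with ferroportin, was likewise highest in cluster 8, at 0.894, but was next in cluster 9, at 0.557. Slc31a1, the copper carrier CTR1, averaged 2.16 in cluster 8 and 1.54 in cluster 4. Slc11a1 (NRAMP1), the metal carrier of phagocyte vacuoles, averaged 2.25 in cluster 5 (1.78 to 2.80) and 1.05 in cluster 10 (0.663 to 1.58), and at most 0.0244 in any other cluster. Slc39a11, a zinc carrier, averaged 1.08 in cluster 0 (0.993 to 1.18) and 0.640 in cluster 2.

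Of the choline, fatty acid and vitamin carriers, Slc44a4, Slc44a1 and Slc46a1 had their 2 highest levels in clusters 8 and 4, and Slc27a4 and Slc44a3 did not. Slc44a4, a choline-like carrier that takes up thiamine pyrophosphate in human colon, averaged 6.89 in cluster 8 (6.36 to 7.45) and 6.23 in cluster 4 (5.87 to 6.62), with overlapping intervals, and 3.31 in cluster 3. Slc44a1, a choline carrier, averaged 3.08 in cluster 8 (2.73 to 3.46) and 2.02 in cluster 4. Slc46a1, the proton-coupled folate carrier, averaged 1.19 in cluster 4 (1.03 to 1.36), 0.745 in cluster 8 (0.579 to 0.944) and 0.424 in cluster 1, compared with 0.0345 in cluster 9. Slc27a4, which promotes fatty acid uptake, averaged 1.16 in cluster 5 (0.831 to 1.58) and 0.484 in cluster 6 (0.304 to 0.732). Slc44a3 averaged 0.737 in cluster 0 and 0.606 in cluster 2, and was low in clusters 4 and 8, at 0.236 and 0.190.

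Organic anion carriers were highest in clusters 8, 9 and 4. Slc13a2, the sodium-dicarboxylate cotransporter, averaged 1.92 in cluster 8 (1.65 to 2.23), 1.45 in cluster 3 (1.32 to 1.60) and 1.17 in cluster 9, compared with 0.623 in cluster 4 and 0 in clusters 10 and 11. Slc51b, a subunit of the bile acid exporter of the basolateral membrane, averaged 0.676 in cluster 9 (0.537 to 0.841) and 0.468 in cluster 8 (0.339 to 0.631), with overlapping intervals. Slc22a18 averaged 1.70 in cluster 9 and 1.65 in cluster 4, and Slc22a23 averaged 1.03 in cluster 8 and 0.746 in cluster 4. Slc17a4, an organic anion carrier, averaged 0.770 in cluster 4 and 0.468 in cluster 9. The mitochondrial sodium/calcium exchanger Slc8b1 averaged 0.564 in cluster 8 and 0.535 in cluster 3.

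Nucleotide sugar carriers were the class most frequent in the goblet-like cluster 0, where 6 of 12 members had their highest level, against 5.77% of all genes. Slc35a1, the Golgi carrier of CMP-sialic acid, averaged 2.41 in cluster 0 (2.27 to 2.55), 1.81 in cluster 9 (1.58 to 2.07) and 1.56 in cluster 2. Slc35c1, the carrier of GDP-fucose, averaged 1.43 in cluster 0 (1.33 to 1.54) and 1.01 in cluster 1 (0.904 to 1.13). Slc35a2, the carrier of UDP-galactose, averaged 1.37 in cluster 0 and 1.23 in cluster 6, with overlapping intervals. The differences were small: cluster 0 was apart from the next cluster by the intervals for 2 of the 6, and the class median was 0.57 log2 units over the average of the remaining clusters in cluster 0, where that of all genes was -0.26. Slc35f5 went the other way, at 1.99 in cluster 8 and 1.47 in cluster 4, compared with 0.385 in cluster 0. The vesicular nucleotide carrier Slc17a9 averaged 0.581 in cluster 0 (0.515 to 0.653) and 0.405 in cluster 4.

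The 19 cells of the enteroendocrine-like cluster 11 led in 3 carriers. Slc18a1 (VMAT1), which loads monoamines such as serotonin into secretory granules, averaged 1.42 there (0.913 to 2.10) and at most 0.0358 in any other cluster, the value of cluster 0. Slc38a11, of the amino acid carrier family SLC38, averaged 1.32 in cluster 11 (0.834 to 1.98) and was listed at 0 in all other 11 clusters. Its average was 9.46-fold over 0.139, the most that 3 UMIs would allow in any of these. This ratio leaves out the counting error of the average itself, which rests on about 22.8 UMIs. Slc29a1 (ENT1), the equilibrative nucleoside carrier, averaged 2.08 in cluster 11 (1.46 to 2.88), with 0.432 in cluster 0 and 0.421 in cluster 7. Slc29a4, a carrier of monoamines and adenosine, averaged 0.762 in cluster 11 (0.407 to 1.30), below the level of 1 in the rule, and 0.0653 in cluster 1. Chgb, an endocrine granule gene, averaged 148 in cluster 11, against at most 0.958 in any other cluster.

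Of the 9 carriers highest in cluster 5, 7 had cluster 10 as their next cluster. The matching share over all genes was not computed, so this count describes these 9 carriers only. The 6 leading carriers there, Slc7a11, Slc16a3, Slc2a3, Slc11a1, Slc2a6 and Slc27a4, belong to 5 substrate classes. Beside them S100a8, a neutrophil marker, averaged 427 in cluster 5 and 0.0905 in cluster 10, so that this marker and these carriers did not keep a fixed ratio between the 2 clusters. Slc15a3 in cluster 10 was 62.3% of its level in cluster 5, Slc11a1 46.7%, Slc2a6 23.04%, Slc7a11 17.3%, Slc16a3 12.8% and Slc2a3 5.41%, against 0.0212% for S100a8. Epcam, an epithelial gene, averaged 3.83 in cluster 5 and 2.89 in cluster 10, compared with 14.9 to 37.6 in the other clusters. Slc6a13, a carrier of GABA and taurine, averaged 0.9503 in cluster 10 (0.584 to 1.46) and 0.169 in cluster 5.

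Between cluster 8 and clusters 3, 4 and 9 the carriers did not move as a block. Between clusters 8 and 4, 10 of 77 members were at least 2-fold higher in cluster 8 (12.99%, against 3.43% of all genes) and 3 at least 2-fold lower (3.90%, against 6.47%). Between clusters 8 and 9, 16 were higher in cluster 8 (20.8%, against 7.92%) and 5 lower (6.49%, against 13.4%), and between clusters 8 and 3, 14 were higher (18.2%, against 7.06%) and 6 lower (7.79%, against 10.4%). Of the 23 carriers highest in cluster 8, cluster 4 was the next for 11, cluster 3 for 8, cluster 9 for 3 and cluster 6 for 1. Matching shares over all genes were not computed for these counts of the next cluster. The median log2 difference between clusters 8 and 4 was 0.00, and in cluster 8 the median over the mean of the other clusters was 0.03, where that of all genes was -0.35. Xist, at 0 in cluster 8 and 2.99 in cluster 4, differed between the same clusters, and its part in these counts was not tested.

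Partner genes that carriers need gave a mixed picture. Of 9 measured genes for the sodium pump and carrier chaperones, 3 had their highest level in cluster 8, where 2 exceeded the average of the remaining clusters 2-fold and 2 fell short of it 2-fold. The list's median there was -0.46 and that of all genes -0.35. Of all genes, 10.9% were highest in cluster 8 and 5.94% were 2-fold higher there. All-gene values, here and for the lists below, cover genes that reached 0.5 in some cluster. The 5.94% also needed a level of 1 or more. The lists had no such floor, so their counts and medians are not strictly matched to the all-gene values. Bsg, the chaperone of MCT1 and MCT4, was instead highest in cluster 1, at 15.1, with 14.3 in cluster 4, 6.39 in cluster 8 and 3.35 in cluster 5, while Emb, another chaperone of this kind, averaged 2.28 in cluster 5 and 0 in cluster 8. Of 12 metal handling genes, 3 were highest in cluster 8, with a list median of -0.21, and 4 were at least 2-fold higher in cluster 10 and 3 in cluster 8, including the zinc-binding metallothioneins Mt1, at 35.2 with 12.5 in cluster 9, and Mt2, at 11.8 with 4.06 in cluster 9. Fth1, the ferritin heavy chain, averaged 272 in cluster 5 and 268 in cluster 10.

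The remaining lists were also split. Of 11 amino acid response genes, 3 were highest in cluster 0, as were 5.77% of all genes, and 3 in cluster 5, as were 10.3%. The list median was 0.70 in cluster 0, where that of all genes was -0.26. Of the 3 in cluster 5, Chac1 at 0.227 and Trib3 at 0.0301 lay below the all-gene floor of 0.5, and Ddit3 averaged 1.34. Atf4, the factor of this response, averaged 3.88 in cluster 0, followed by 2.88 in cluster 11, with 1.88 in cluster 5 and 1.03 in cluster 8. Glutathione and NRF2 genes, 9 in number, were highest in cluster 7 for 4, as were 13.1% of all genes, with a median of 0.64 where that of all genes was -0.09. Gsr, glutathione reductase, averaged 8.07 in cluster 5, the cluster of high Slc7a11, with 2.33 in cluster 7. Of 10 genes of phosphate and glucose 6-phosphate, 4 peaked in cluster 4, whose median was 0.65 where that of all genes was -0.31, and 3 peaked in cluster 8, whose median was 0.43 where that of all genes was -0.35. Among 12 ABC transporters, which pump substrates with ATP, 4 were highest in cluster 8, as were 10.9% of all genes. Their list median there was 0.07, where that of all genes was -0.35. Of these 4, Abcb1b averaged only 0.0207 in cluster 8, below the all-gene floor, and Abcc3 averaged 1.07. Abcb1a (P-glycoprotein) averaged 5.65 there and 2.63 in cluster 9, and Abcg2 averaged 2.33 in cluster 8 and 1.27 in cluster 4. The lists were set with earlier results of these data known, and their medians describe these averages.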

How the data were processed

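Single-cell RNA libraries of mouse colon epithelium were the source. The authors used Cell Ranger 3.1.0 and Seurat 2.3 with build mm10, per the submitters' processing notes; how cells were filtered, doublets treated and clusters drawn is not given in the sources used here. Values in the deposited table are cluster averages in mean UMIs per 10000, read from the values because every column sums to 10000. Cells per cluster were the number that divides most whole values of 10000 over the average (relative tolerance 1e-12), and UMI totals were accepted where at least 2 genes gave them, for 2304 cells (74.8%). Approximate UMI numbers behind an average used the harmonic mean of these totals, with exact Poisson 95% intervals, and a 0 allows up to 3 UMIs. The recovery of cell numbers and UMI totals and the rule for leading genes were tested on simulated data. The approximate UMI numbers, the intervals and the allowance for a 0 were not. The members and lists were chosen with earlier results of these data known.

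Carriers were grouped by family number, and a pseudocount of 0.1 per 10000 was added for folds. With 1 group, no replicate per average and members selected on level, no test was run. The text names Slc37a2, Slc20a1, the leading carriers, per cluster the 3 with the largest fold and per class the 4 with the highest level, the 2 nearest the floor on each side, the 5 genes most alike, and up to 4 genes per partner list; any other gene was picked with its values in view, and some genes under this rule are not reported here. Gene positions come from GENCODE M21 (GRCm38), and promoters from RefSeq (GRCm38.p6), taking the start nearest the annotated one. Protein sequences were not used here. Calculations used Python 3.11.15, numpy 2.4.6, pandas 2.3.3 and scipy 1.17.1.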

Additional observations from a re-analysis of the deposited data

How the results depend on the processing

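The number of leading carriers, 14, stayed between 10 and 16 under the alternatives. With a pseudocount of 1, with a 4-fold rule, and with the lower bound of the leading cluster set against the upper bound of the next (an alternative chosen after seeing the data), 10 of the 14 remained, and Slc11a1, Slc27a4, Slc2a6 and Slc50a1 were lost each time. The pairs of carrier and cluster at a level of 1 or more and past 2-fold over the average of the remaining clusters numbered 56. They were 27 with a pseudocount of 1, 22 at 4-fold and 34 without clusters 5 and 10. A floor of 1 per 10000 left 45 members. The share of members highest in cluster 8 lay between 26.5% and 37.8% under the other floors and without the clusters of fewer than 50 cells, and that of cluster 0 between 16.8% and 31.2%, its highest value coming without those clusters and exceeding the 29.9% of cluster 8. All-gene shares were not computed under these alternatives. Of 47 comparisons of the folds of leading carriers, 15 moved by over 1.5 times. Their direction could not turn, because each fold set the highest cluster against the others. With a pseudocount of 1 the partner list medians shrank: in cluster 8 to -0.090 for the sodium pump and chaperones, -0.057 for metal handling, 0.16 for phosphate and glucose 6-phosphate and 0.010 for ABC transporters, to 0.11 for the amino acid response in cluster 0, 0.38 for glutathione in cluster 7 and 0.25 for phosphate and glucose 6-phosphate in cluster 4. By Spearman correlation 1 of the 5 genes most like Slc37a2, and 1 of 5 for Slc20a1, was kept. No paired analysis was possible because the columns do not separate the libraries, and leaving out a library was not run for the same reason. Depth limits clusters 5, 10 and 11 most: 3 UMIs stand for 0.0862, 0.139 and 0.174 per 10000 there, against 0.00624 in cluster 0.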
